A study of Mus musculus with 6 samples.

Results

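The enzymes that build phosphatidylcholine and related phospholipids were followed in mouse liver through 10 genes, Pcyt1a, Pcyt2, Chka, Chkb, Chpt1, Cept1, Lpcat1, Lpcat3, Ptdss1 and Ptdss2, chosen by name from a count table of 23412 gene symbols. All 10 were rows of the table, and 9 passed the filter on low counts; Chkb did not. RNA was sequenced from 6 liver samples of C57BL/6J mice, an inbred laboratory strain, labelled as 8 weeks of age. All had been on a high-fat diet for 4 weeks. Samples titled HFD_Lira3d (3 libraries, Lira161, Lira162 and Lira164) carry the treatment label liraglutide at 300 µg/kg for 3 days under the skin, and samples titled HFD_PBS3d (3 libraries, PBS155, PBS157 and PBS158) carry the label PBS, the saline vehicle. Liraglutide mimics the gut hormone GLP-1, which enhances insulin release and reduces appetite. Whether each library came from its own animal is not in the labels; if not, the p-values reflect technical spread alone.

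Phosphatidylcholine is the most abundant phospholipid of animal membranes. In liver it also coats secreted lipoproteins and is pumped into bile. The Kennedy pathway makes it from choline: choline kinase (Chka, Chkb) adds a phosphate, CTP:phosphocholine cytidylyl transferase (Pcyt1a) makes CDP-choline in the rate-limiting step, and a phosphotransferase (Chpt1, Cept1) joins the headgroup to diacylglycerol. Pcyt2 is the matching cytidylyl transferase of the ethanolamine branch, which makes phosphatidylethanolamine, and Cept1 serves both branches. Lpcat1 and Lpcat3 put fatty acids back onto lysophosphatidylcholine. Ptdss1 and Ptdss2 make phosphatidylserine by exchanging the headgroup of phosphatidylcholine or phosphatidylethanolamine.

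Promoter sequence is shown for 3 of these genes: Chpt1, the enzyme gene that passed the test below, Cept1, its paralog with the same reaction that did not, and Pcyt1a, whose promoter alone among the members searched held the sterol regulatory element core. The stretches lie upstream of the annotated transcript at chr10:88504074-88504220 (minus strand) for Chpt1, chr3:106547803-106548052 (minus strand) for Cept1 and chr16:32430671-32430920 (plus strand) for Pcyt1a, from RefSeq on GRCm38.p6. They read 5′ to 3′ in the direction of transcription, and capitals mark the GC box GGGGCGGGG or the sterol regulatory core TCACCCCAC on either strand.
Chpt1: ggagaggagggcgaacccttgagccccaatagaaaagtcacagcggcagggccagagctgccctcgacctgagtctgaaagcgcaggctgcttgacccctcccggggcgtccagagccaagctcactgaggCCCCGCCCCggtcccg
Cept1: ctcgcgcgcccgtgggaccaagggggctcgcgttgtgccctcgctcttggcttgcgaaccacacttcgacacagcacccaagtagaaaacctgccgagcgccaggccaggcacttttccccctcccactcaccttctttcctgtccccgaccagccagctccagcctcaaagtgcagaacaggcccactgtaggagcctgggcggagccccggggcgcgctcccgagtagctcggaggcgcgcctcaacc
Pcyt1a: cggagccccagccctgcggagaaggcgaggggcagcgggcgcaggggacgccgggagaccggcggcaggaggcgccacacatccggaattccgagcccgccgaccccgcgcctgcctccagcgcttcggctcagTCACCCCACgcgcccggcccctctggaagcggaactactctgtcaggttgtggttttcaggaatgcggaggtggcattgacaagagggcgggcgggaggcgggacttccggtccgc

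RefSeq gave 12 promoter windows of 300 bases (250 before and 50 after a start) for 8 of the 10 members, and none for Pcyt2 or Ptdss1. TCACCCCAC was found in 2 windows, both of Pcyt1a, against 0.551% of all 32851 promoter windows. The GC box was found in 5 of the 12 windows, for Chka, Chpt1, Cept1, Lpcat3 and Ptdss2, against 11.4% of all windows. Chpt1 had 3 GC boxes, of which 1 lies in the stretch printed above. Cept1 had 1, which lies outside its printed stretch. Cept1 and Pcyt1a had 3 windows each, and only part of 1 window is printed for each gene. CCAAT was found in 5 of the 12 windows, for Chka, Chkb, Chpt1, Cept1 and Lpcat3, against 37.4% of all windows. The E-box CACGTG (7.15% of all windows), the cyclic AMP element TGACGTCA (1.79%), and the nuclear receptor direct repeats DR1 (0.0396%) and DR4 (0.0152%) were found in 0 of the 12. A match describes these letters only.

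Library totals ranged from 20888991 to 27007182 counts. Across all genes, 1107 of 12626 tested (8.77%) passed edgeR's quasi-likelihood test at a Benjamini-Hochberg adjusted p below 0.05, 515 higher (4.08%) and 592 lower (4.69%) under liraglutide. The share of higher genes among those called was 46.5% with TMM scaling and 57.2% when libraries were scaled by their totals. The count moved with the libraries: it was 462 without Lira161, 393 without Lira162, 653 without PBS157 and 414 without PBS158. It was 962 without PBS155 and rose to 1496 without Lira164. All 6 hepatocyte markers passed the filter, Hnf4a higher and Serpina1c lower, with a summed level of 66353 to 84520 CPM under liraglutide and 78042 to 99506 under PBS (CPM are counts relative to the TMM-scaled library size). Alb made up most of each sum (41037 to 57171 and 55676 to 76534 CPM), and 3 of the 6 markers had positive changes.

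Among the 9 tested enzymes, Chpt1 fell and none rose, against a background of 8.77% of all genes called (4.69% lower). At an unadjusted p below 0.05, 1 of 9 passed, against 25.6% of all genes. The median log2 fold change of the 9 was 0.037, beside 0.011 for all tested genes, and their median absolute change was 0.11, beside 0.21. Liraglutide and PBS libraries did not overlap for Chpt1 and Pcyt1a, 2 of 9, where 31.3% of all tested genes did not overlap.

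**Figure D1:**
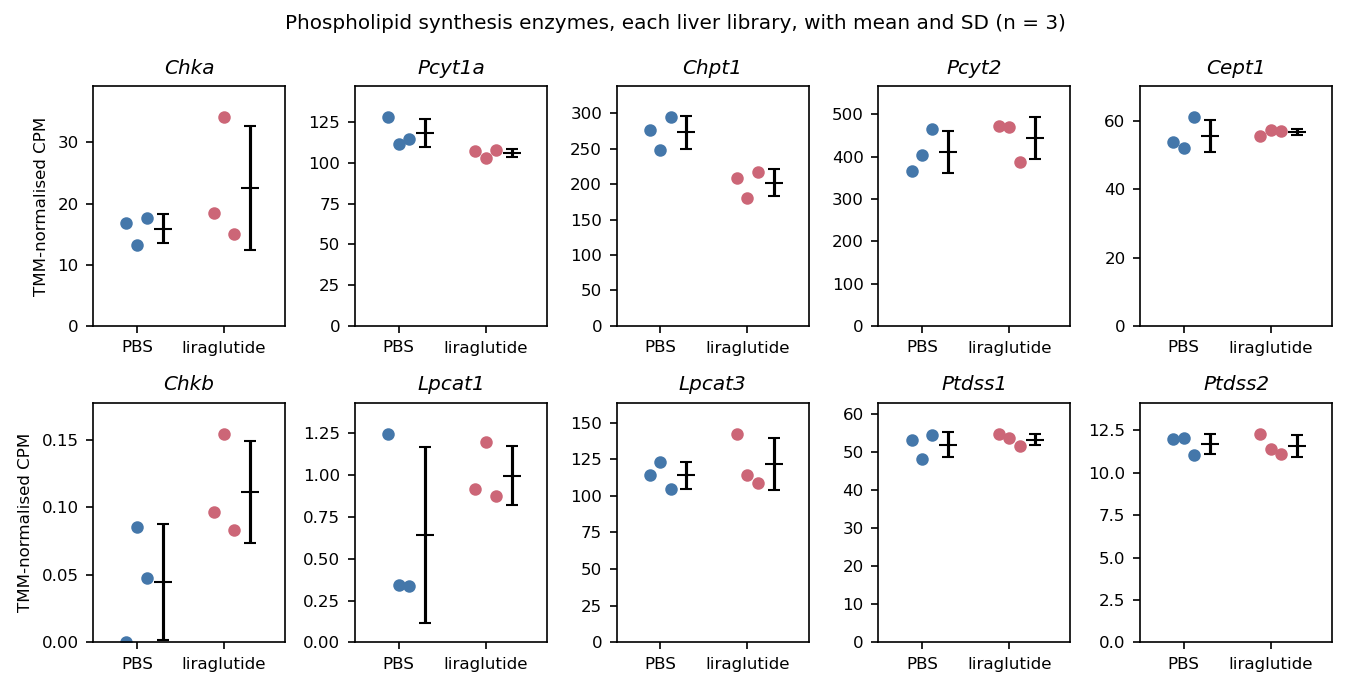
TMM-normalised CPM (y axis, from 0, its own scale in each panel) of the 10 enzymes in every library, by treatment; black marks are the mean and SD of 3 libraries. All 3 liraglutide libraries lie below all 3 PBS libraries for Chpt1 and Pcyt1a, library Lira162 stands above the others for Chka, and PBS155 stands above the other PBS libraries for Lpcat1.

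The choline branch begins with Chka (chromosome 19, 3851773 to 3894369, GRCm38). It was at 18.4, 34.1 and 15.0 CPM in Lira161, Lira162 and Lira164 and at 16.8, 13.2 and 17.7 CPM in PBS155, PBS157 and PBS158. Only Lira162 lay outside the range of the other 5 libraries by a wide margin, and the groups overlapped. The log2 fold change was 0.50 ± 0.31 (SE; edgeR adjusted p = 0.364), with a 95% interval from -0.24 to 1.25. Without Lira162 it was 0.065 (edgeR adjusted p = 0.879).

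Chkb, the second choline kinase gene (chromosome 15, 89426360 to 89429908), had 2, 4 and 2 reads in the liraglutide libraries and 0, 2 and 1 in the PBS libraries. The sums of 8 reads (exact Poisson 95% interval 3.45 to 15.8) and 3 reads (0.619 to 8.77) give a ratio of 2.70 with a counting interval of 0.648 to 15.8, so no difference was detectable at this depth. Exons of the read-through gene Gm44502, which joins Chkb to Cpt1b, cover 1552 bp (50.7%) of the Chkb exons on the same strand. Under its older name BC090627 that gene is in the table with 0 reads in all 6 libraries, and Cpt1b had between 2 and 12 reads. The sources used here do not say how reads matching several genes were counted, so the level of Chkb is uncertain, and the part of the overlap in it was not tested.

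Pcyt1a, the gene of the rate-limiting cytidylyl transferase (chromosome 16, 32430921 to 32475070), was at 107, 103 and 108 CPM under liraglutide and at 128, 112 and 115 CPM under PBS. All liraglutide libraries lay below all PBS libraries, but the difference was small and did not pass the test. Its log2 fold change was -0.15 ± 0.093 (SE; edgeR adjusted p = 0.331), with a 95% interval from -0.36 to 0.053.

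Chpt1, the cholinephosphotransferase gene that ends the choline branch (chromosome 10, 88452745 to 88504073), was at 209, 181 and 217 CPM in Lira161, Lira162 and Lira164. In PBS155, PBS157 and PBS158 it was at 277, 248 and 294 CPM. Every liraglutide library lay below every PBS library. The mean fell from 273 ± 23.4 to 202 ± 19.0 CPM (SD, n = 3 each), a log2 fold change of -0.43 ± 0.11 (SE; edgeR adjusted p = 0.0478) with a 95% interval from -0.69 to -0.18. In a piece of tissue, less RNA per cell and fewer cells of a type cannot be told apart.

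The call of Chpt1 lies at the edge of the threshold. It kept a negative log2 fold change, between -0.50 and -0.36, in all 14 alternatives, and was called in 8 of them. It passed with DESeq2 (adjusted p = 0.0101) and limma-voom (adjusted p = 0.0439). With library totals as the scaling, edgeR gave an adjusted p of 0.0684. The edgeR adjusted p was 0.115 without Lira161, 0.171 without Lira162, 0.0773 without PBS155, 0.0651 without PBS157 and 0.151 without PBS158, and 0.0385 without Lira164. Sycp3, a gene of meiotic chromosomes on the other strand whose exons overlap Chpt1 over 660 bp (7.93% of its exon length), had between 0 and 4 reads.

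**Figure D2:**
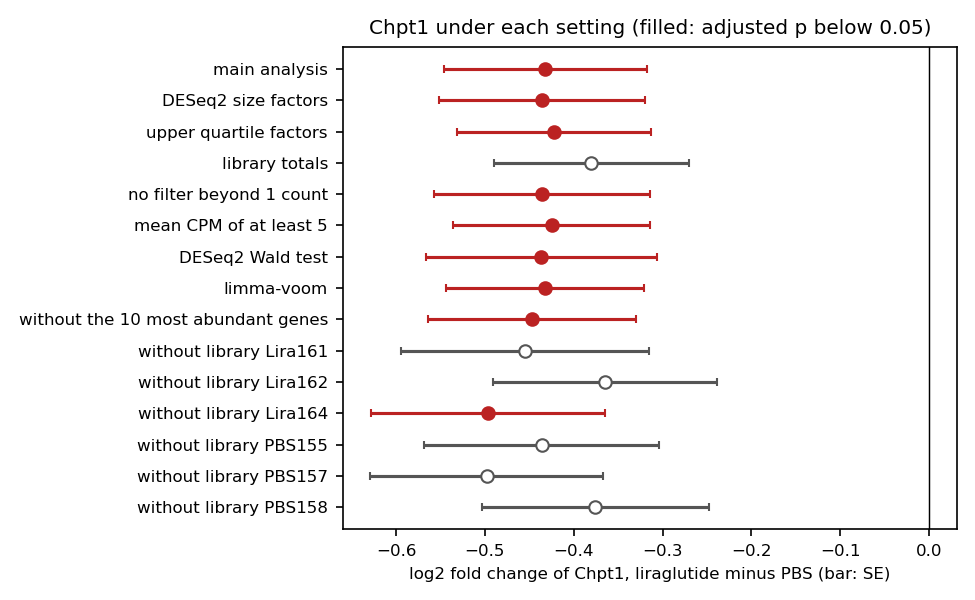
Log2 fold change of Chpt1 (x axis, liraglutide minus PBS; bars are the SE) under the main analysis and 14 alternatives (y axis); filled red points passed an adjusted p of 0.05. All estimates lie between -0.50 and -0.36, and 6 of the alternatives did not pass.

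Genes whose libraries ran most like Chpt1, by the root mean square difference of mean-centred log2 CPM over the 6 libraries, were Rbm47 (0.0396), Cdh2 (0.0415) and Tbccd1 (0.0418). Their log2 fold changes were -0.46, -0.47 and -0.44. For Chka, which had the smallest p among the members with a positive change, they were Tead1 (0.174), Bcam (0.177) and Mks1 (0.183), more distant by the same measure.

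Cept1, whose enzyme uses CDP-choline and CDP-ethanolamine (chromosome 3, 106502260 to 106547802), was at 55.7, 57.3 and 57.2 CPM under liraglutide and at 53.8, 52.1 and 61.1 CPM under PBS. The groups overlapped fully. Its log2 fold change was 0.028 ± 0.093 (SE; edgeR adjusted p = 0.882), with a 95% interval from -0.18 to 0.24. Exons of Dennd2d on the other strand cover 24.7% of the Cept1 exons, and Dennd2d had 192 to 252 reads against 1155 to 1484 for Cept1, so part of the Cept1 count is uncertain.

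The balance of the paralogs was read within each library, where scaling plays no part. There were 3.75, 3.16 and 3.80 Chpt1 reads per Cept1 read in the liraglutide libraries and 5.15, 4.76 and 4.82 in the PBS libraries. The liraglutide ratios were all below the PBS ratios, by 0.46 on the log2 scale. The two-sided exact permutation test gave p = 0.1, the smallest that 3 against 3 libraries can give, and 0.4 after Benjamini-Hochberg adjustment over the 4 ratios computed. This exact test could therefore not pass the threshold with 3 libraries a group, whatever the size of the difference. No exact stretch of 50 bases was shared between the annotated transcripts of any of the 10 members.

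Pcyt2, the ethanolamine-branch cytidylyl transferase gene (chromosome 11, 120610087 to 120617936), was the most abundant member. It was at 473, 471 and 387 CPM under liraglutide and at 365, 403 and 465 CPM under PBS. PBS158 reached the level of the higher liraglutide libraries, and the log2 fold change was 0.11 ± 0.13 (SE; edgeR adjusted p = 0.640; 95% interval -0.19 to 0.41). The ratio of Pcyt1a to Pcyt2 reads was 0.227, 0.219 and 0.279 in the liraglutide libraries and 0.351, 0.277 and 0.247 in the PBS libraries. These ranges overlapped (exact permutation p = 0.3, adjusted 0.533).

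**Figure D3:**
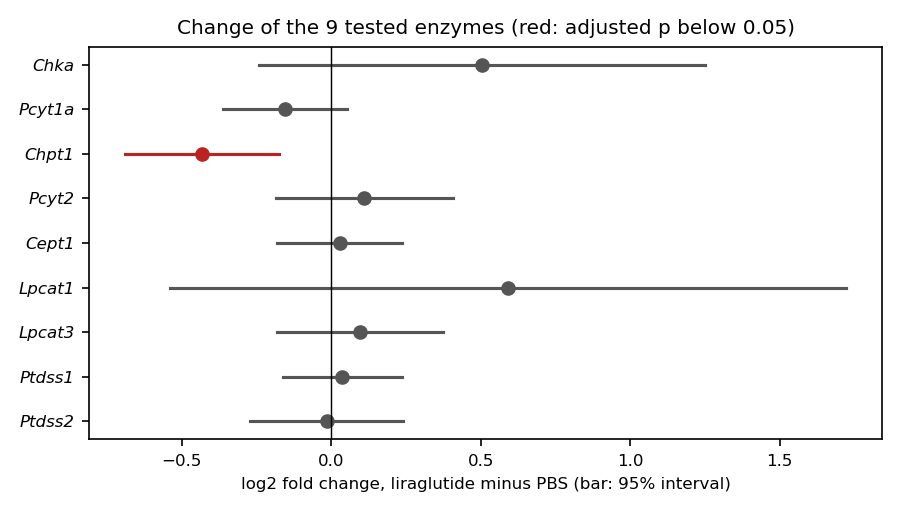
Log2 fold change (x axis, liraglutide minus PBS) of the 9 tested enzymes (y axis), with 95% intervals from edgeR; red marks an adjusted p below 0.05. The interval of Chpt1, -0.69 to -0.18, is the one that does not include 0, and the intervals of Chka and Lpcat1 are the widest.

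Lpcat3, the acyltransferase that places polyunsaturated fatty acids in phosphatidylcholine (chromosome 6, 124663027 to 124704418), was at 142, 114 and 109 CPM under liraglutide and at 114, 123 and 104 CPM under PBS. Only Lira161 lay above the PBS range. The log2 fold change was 0.096 ± 0.12 (SE; edgeR adjusted p = 0.664; 95% interval -0.18 to 0.37). Exons of Emg1 on the other strand cover 10.2% of the Lpcat3 exons, and Emg1 had 807 to 1044 reads, so reads in the overlap cannot be assigned. Lpcat3 is known as a target of the oxysterol receptor LXR. Of 8 listed LXR targets, Lpcat3 among them, Srebf1 was called lower and 0 were called higher, beside 4.69% and 4.08% of all tested genes; the list's median log2 change was -0.077. Its other members lay on both sides of 0 without passing, among them Mylip at 0.63 and Abcg1 at 0.57, and Abca1 at -0.48 and Abcg5 at -0.34. Groups did not overlap for 5 of the 8, beside 31.3% of all tested genes. These were Srebf1, Abca1, Abcg5 and Abcg8 on the lower side under liraglutide and Nr1h3 on the higher side, while Mylip, Abcg1 and Lpcat3 overlapped.

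Lpcat1, the acyltransferase known for the saturated phosphatidylcholine of lung surfactant (chromosome 13, 73467197 to 73516422), was barely present. It had 19, 31 and 21 reads in the liraglutide libraries (0.916, 1.20 and 0.875 CPM) and 34, 8 and 7 reads in the PBS libraries (1.25, 0.343 and 0.336 CPM). PBS155 held the highest level of all 6 libraries, and the other PBS libraries the lowest. The log2 fold change was 0.59 ± 0.50 (SE; edgeR adjusted p = 0.4999; 95% interval -0.54 to 1.72). Without PBS155 it was 1.53 (edgeR adjusted p = 0.0568). The ratio of Lpcat1 to Lpcat3 reads ranged from 0.00644 to 0.0105 under liraglutide and from 0.00278 to 0.0109 under PBS (exact permutation p = 0.4, adjusted 0.533). Macrophage and endothelial markers also stood highest among the PBS libraries in PBS155. Stellate cell markers were mixed. In PBS155, PBS157 and PBS158, Dcn was at 159, 190 and 118 CPM and Reln at 77.9, 55.2 and 32.4 CPM. The 8 macrophage markers, of which 0 passed and 7 had positive changes, summed to 188 to 286 CPM under liraglutide and to 87.1 to 316 under PBS, with the highest sum in PBS155. Marco, for example, was at 40.5 CPM in PBS155 and at 3.81 and 3.07 CPM in PBS157 and PBS158. Of 8 endothelial markers Clec4g rose, beside 4.08% of all tested genes called higher, and the other 7 did not pass. All 8 had positive changes (median 0.74, beside 0.011 for all tested genes). They summed to 224 to 349 CPM under liraglutide and 132 to 248 under PBS, again highest in PBS155 among the PBS libraries. No macrophage or endothelial marker was at 0, and the part of these cells in the Lpcat1 counts was not tested.

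The phosphatidylserine synthase genes stayed within narrow ranges. Ptdss1, which draws on phosphatidylcholine (chromosome 13, 66932830 to 66998401), was at 54.7, 53.7 and 51.7 CPM under liraglutide and at 53.2, 48.3 and 54.4 CPM under PBS. Ptdss2, which draws on phosphatidylethanolamine (chromosome 7, 141122382 to 141157606), was at 12.3, 11.4 and 11.1 CPM and at 11.98, 12.08 and 11.04 CPM. Both genes overlapped between groups. The 95% intervals of their log2 fold changes ran from -0.16 to 0.24 (edgeR adjusted p = 0.828) and from -0.27 to 0.24 (edgeR adjusted p = 0.951). The ratio of Ptdss1 to Ptdss2 reads lay between 4.00 and 4.93 in all 6 libraries (exact permutation p = 0.6, adjusted 0.6).

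Levels can be compared between genes only per length, here as mean CPM per kilobase of exon in the PBS libraries (n = 3, SD). Pcyt2 was highest at 94.5 ± 11.6, followed by Lpcat3 at 34.9 ± 2.88 and Chpt1 at 32.8 ± 2.81. Cept1 (17.9 ± 1.53), Pcyt1a (15.95 ± 1.16) and Ptdss1 (12.1 ± 0.757) formed the middle of the order. Ptdss2 was at 2.08 ± 0.102, Chka at 1.32 ± 0.196, Lpcat1 at 0.138 ± 0.113 and Chkb at 0.0146 ± 0.0140. The PBS ranges of the neighbours Lpcat3 and Chpt1, and of Cept1 and Pcyt1a, overlapped, while the ranges of the other neighbours did not. Measured on the longest transcript in place of all exons, Chpt1 stood above Lpcat3 (56.1 against 48.0), Pcyt1a above Cept1 (24.7 against 19.8) and Chka above Ptdss2 (3.42 against 3.23).

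**Figure D4:**
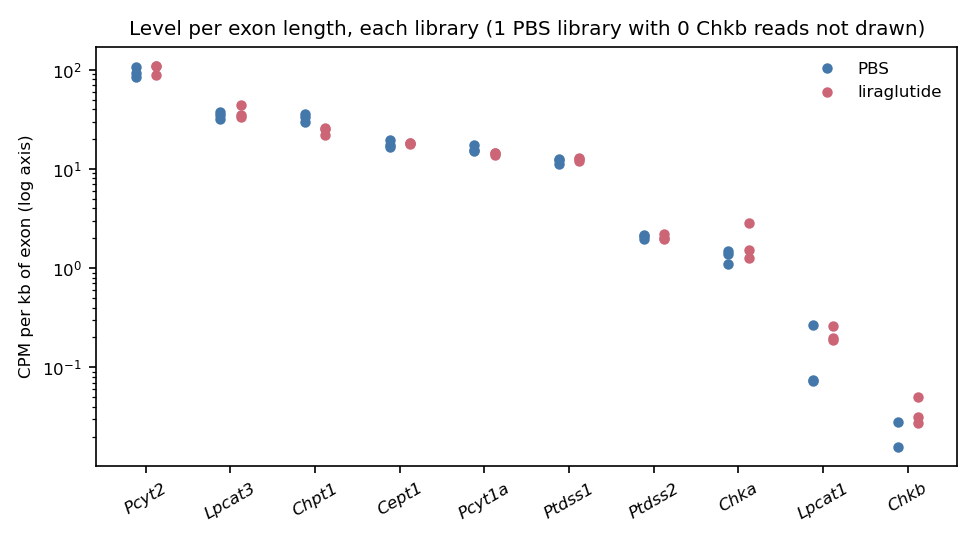
CPM per kilobase of exon (y axis, log scale) of each enzyme gene in each library, ordered by the PBS mean; points are libraries, blue for PBS and red for liraglutide. Pcyt2 leads at a PBS mean of 94.5 and Chkb is last at 0.0146, and treatment colours separate for Chpt1 and, more closely, for Pcyt1a.

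Around these enzymes, 62 further genes of phospholipid synthesis, turnover and transport were listed by role, and 56 passed the filter. Of these, 8 rose and 1 fell (16.1%), beside 8.77% of all tested genes. Their median log2 fold change was 0.16, beside 0.011 for all tested genes. The lists were chosen with earlier results of these data known, so both comparisons with all genes are descriptions only. The count of 9 was 3 without Lira161, 4 without Lira162, 10 without Lira164, 5 without PBS155, 4 without PBS157 and 2 without PBS158. The calls among all tested genes in these fits were, in the same order, 462 of 12780, 393 of 12716, 1496 of 12793, 962 of 12729, 653 of 12750 and 414 of 12852.

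In the ethanolamine, methylation and phosphatidylserine routes, 1 of 6 tested genes rose, beside 4.08% of all tested genes called higher. Etnk2, an ethanolamine kinase gene of liver that acts one step before Pcyt2, was at 738, 563 and 426 CPM under liraglutide and at 312, 318 and 361 CPM under PBS. The groups did not overlap, Lira164 was the lowest liraglutide library, and the log2 fold change was 0.80 ± 0.19 (SE; edgeR adjusted p = 0.0318). The call held without Lira164 and was lost without any other library, at adjusted p between 0.0791 and 0.101 (log2 fold change 0.58 without Lira161). Etnk1, the other ethanolamine kinase gene, was at 85.3 ± 3.93 against 86.8 ± 13.4 CPM (SD; edgeR adjusted p = 0.922). Pemt, which makes phosphatidylcholine by methylating phosphatidylethanolamine and is known chiefly from liver, was at 166 ± 20.6 against 172 ± 13.7 CPM (edgeR adjusted p = 0.828). Pisd, which decarboxylates phosphatidylserine in mitochondria, was at 34.8 ± 0.545 against 36.4 ± 2.63 CPM (edgeR adjusted p = 0.684). Ept1 (now Selenoi), the ethanolamine phosphotransferase gene, was at 63.4 ± 7.61 against 71.9 ± 2.21 CPM (edgeR adjusted p = 0.313). Pcyt1b, a paralog of Pcyt1a, had 0 to 7 reads and was not tested.

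Diacylglycerol, the acceptor that Chpt1 and Cept1 use, comes from phosphatidate. Of 12 tested genes of that route 3 rose and none fell, beside 4.08% and 4.69% of all tested genes. The median log2 fold change of the route was 0.32, beside 0.011 for all tested genes. Lpin2, a phosphatidate phosphatase gene, was at 1052, 1108 and 835 CPM under liraglutide and at 355, 487 and 543 CPM under PBS, and was called in all 14 alternatives. Agpat9 (now Gpat3), a glycerol-phosphate acyltransferase gene, was at 24.9, 26.7 and 14.7 CPM against 10.6, 9.38 and 10.3 CPM. Its log2 fold change was 1.13 ± 0.21 (SE; edgeR adjusted p = 0.0165), and its call was lost without Lira161, PBS157 or PBS158 (adjusted p = 0.0644, 0.0590 and 0.0665). Exons of the antisense gene 4930458D05Rik cover 1052 bp of the Agpat9 exons, and Gm42987 on the same strand covers 259 bp. The value of Agpat9 is therefore uncertain. Agpat3, a lysophosphatidate acyltransferase gene, was at 419, 426 and 389 CPM against 299, 302 and 299 CPM, with libraries of each group close together. It rose by 0.45 ± 0.098 on the log2 scale (edgeR adjusted p = 0.0230), a call held without Lira164 and lost without any other library (adjusted p from 0.0531 to 0.0925).

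Among choline supply genes, Slc44a3, a member of the choline transporter-like family, fell, beside 4.69% of all tested genes called lower. The other 3 tested did not pass. Slc44a3 was at 2.27, 2.16 and 1.83 CPM under liraglutide and at 5.57, 4.84 and 5.95 CPM under PBS, with no overlap. The log2 fold change was -1.38 ± 0.20 (SE; edgeR adjusted p = 0.00581), and it passed in all 13 alternatives that tested it. Of 5 bile duct cell markers tested, Spp1 fell and the other 4 (Krt19, Krt7, Epcam and Sox9) did not pass, beside 4.69% of all tested genes called lower. The 6 listed markers summed to 26.5 to 28.6 CPM under liraglutide and 41.9 to 50.8 under PBS, none at 0 in all libraries, and Spp1 made up most of each sum (19.2 to 21.6 and 33.5 to 40.9 CPM). Their part in the Slc44a3 counts was not tested.

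Of 14 tested genes of phospholipid breakdown, Pnpla7 and Gde1 rose and none fell (median log2 fold change 0.15). Of all tested genes 4.08% were called higher and 4.69% lower, with a median of 0.011. Pnpla7, a lysophospholipase gene, was at 207, 212 and 179 CPM against 136, 149 and 146 CPM (0.47 ± 0.10, SE; edgeR adjusted p = 0.0244). Its call held without Lira164 and was lost without any other library (adjusted p from 0.0594 to 0.101). Gde1, a glycerophosphodiesterase gene, was at 83.9, 87.4 and 88.7 CPM against 58.3, 75.5 and 57.2 CPM (0.45 ± 0.12, SE; edgeR adjusted p = 0.0492). Among fits that left out a library it was called only without PBS157 (otherwise adjusted p from 0.0776 to 0.158), and it was lost with DESeq2 size factors (0.0501), with upper quartile factors (0.0508) and without the 10 most abundant genes (0.0528). Over 229 bp (13.5%) its exons overlap Gm45236 on the other strand.

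Of 7 tested genes of phospholipid transport, Abcb4 and Pctp rose, beside 4.08% of all tested genes called higher, and the other 5 did not pass; the median log2 fold change of the list was -0.069. Among those 5, Stard7 (-0.28, edgeR adjusted p = 0.0862) and Atp8b1 (-0.39, edgeR adjusted p = 0.0955) had all liraglutide libraries below all PBS libraries. Abcb4, the canalicular pump for phosphatidylcholine, was at 1047, 968 and 824 CPM against 554, 622 and 514 CPM, a call lost without PBS158 (edgeR adjusted p = 0.0517). Pctp, the phosphatidylcholine transfer protein gene, was at 395, 367 and 310.2 CPM against 236, 241 and 248 CPM. It rose by 0.56 ± 0.12 on the log2 scale (SE; edgeR adjusted p = 0.0192), and the call was lost without Lira161, Lira162, PBS157 or PBS158 (adjusted p from 0.0623 to 0.0761). In Abcb4 and Pctp all liraglutide libraries lay above all PBS libraries.

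Neither the other acyltransferases nor the genes of acidic phospholipids held a call. Of 5 tested lysophospholipid acyltransferases besides Lpcat1 and Lpcat3, 0 passed (median log2 fold change -0.0069), beside 8.77% of all tested genes. Mboat7, which acts on lysophosphatidylinositol, was at 29.4 ± 2.73 against 31.8 ± 1.65 CPM (edgeR adjusted p = 0.525), and Lpcat2 and Lpcat4 were at 1.94 ± 0.963 against 1.63 ± 0.864 CPM and 0.754 ± 0.239 against 0.485 ± 0.0898 CPM (edgeR adjusted p = 0.803 and 0.348). Of 8 genes of phosphatidylinositol and cardiolipin synthesis, 0 passed, beside the same 8.77%, with a median of 0.18.

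**Figure D5:**
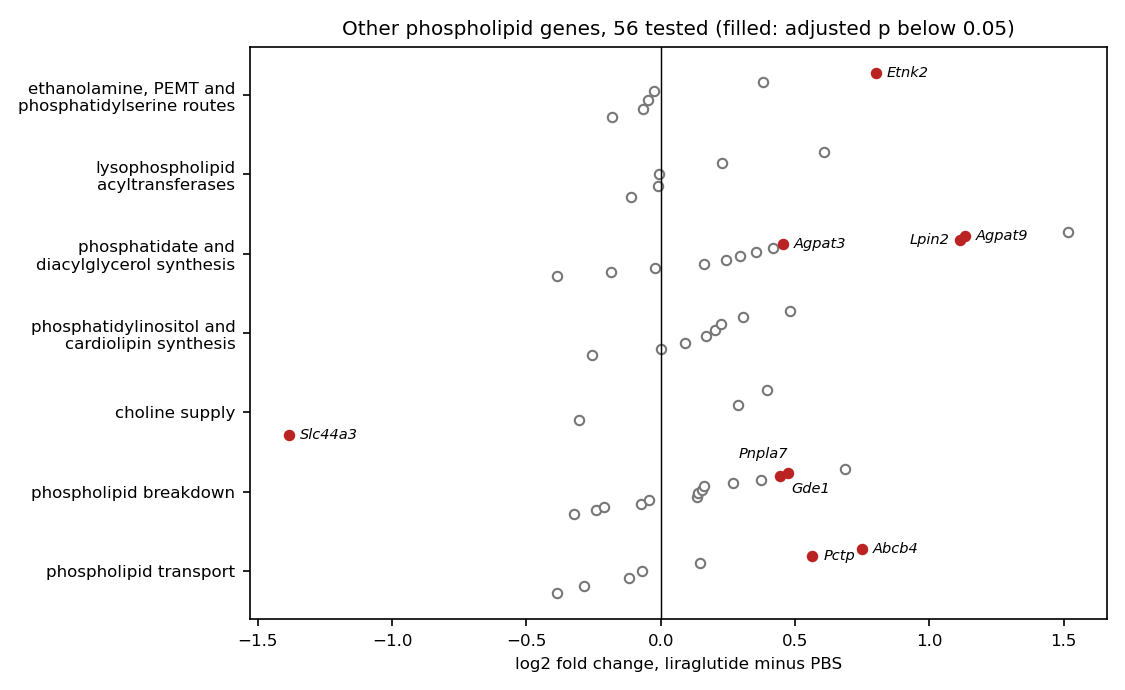
Log2 fold change (x axis, liraglutide minus PBS) of 56 tested genes around the enzymes, by role (y axis; vertical spread within a role only separates points); filled red points, named, passed an adjusted p of 0.05. The 8 genes that rose stand at 0.45 to 1.13 and Slc44a3 at -1.38.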

How the data were processed

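The authors deposited raw read counts per gene symbol, whole numbers that are not normalized, for 23412 symbols in 6 liver libraries. Per the submitters' processing notes, STAR and the mm10 build were used; the counting tool, annotation, strand setting and treatment of ambiguous reads are not stated in those sources. Columns carry the group and a number that matches no triplicate number, so they were assigned to groups only. The protocol text of all samples names liraglutide alone; groups follow the titles and treatment labels.

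From the counts, 12626 genes kept by filterByExpr were normalised by TMM and tested with edgeR 4.0.16 in R 4.3.3 (quasi-likelihood, robust, group as only term), with Benjamini-Hochberg adjustment over all tested genes and a threshold of 0.05. The SE is the log2 fold change divided by the square root of F, and 95% intervals use the moderated degrees of freedom. Library totals of 20888991 to 27007182 counts limit the precision of low genes, and intervals of summed reads cover counting error only. Positions and exon lengths come from GENCODE M21 (GRCm38, the assembly of mm10) and promoters from RefSeq (GRCm38.p6). The edgeR test was checked on counts simulated from its own fitted model, so the check does not cover departures from that model.

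Members and lists were chosen with earlier results of these data known. Named were all members, up to 12 called genes of the role lists by smallest p, 9 further genes in any case, and the 3 nearest genes of 2 members. The LXR targets, marker genes, Stard7, Atp8b1 and the genes of the closing section were named after their values were seen. Marker lists of other cells gave no call for macrophages, stellate cells and lymphocytes, and Alas2 fell among erythroid genes, of which Hba-a1 and Hbb-b1 are listed at 0. Alternatives were other scalings, filters and tests (DESeq2 1.42.0, limma-voom with limma 3.58.1), leaving out 1 library at a time, and dropping the 10 genes with the highest counts.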

Additional observations from a re-analysis of the deposited data

How the results depend on the processing

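No paired analysis was possible because the columns of the count table carry no triplicate numbers. The labels also do not state that equal triplicate numbers in the groups mark pairs, so a paired design is not implied. Other scalings, filters and tests left the number of changed genes between 972 and 1622, and leaving out a library moved it to between 393 and 1496. The count of changed members, 1, was 0 with library totals and 0 to 1 with a library left out; Chpt1 changed by -0.38 with library totals and by -0.50 to -0.36 with a library left out. The other pathway genes called numbered 2 to 10 with a library left out. Fitting a group with 2 libraries assumes it varies like the other. Signs turned, in no case for a called gene, with library totals for Ptdss2 (0.033), Etnk1 (0.022) and Pemt (0.0011), and with a library left out for Cept1 (-0.018 to 0.099), Lpcat3 (-0.031 to 0.16), Ptdss1 (-0.014 to 0.070), Ptdss2 (-0.059 to 0.0074), Etnk1 (-0.12 to 0.088), Pemt (-0.15 to 0.017), Lpcat2 (-0.27 to 0.57) and the ratio of Ptdss1 to Ptdss2 (-0.023 to 0.13). On the longest transcript the PBS levels per kilobase were 218 for Pcyt2, 56.1 for Chpt1, 48.0 for Lpcat3, 24.7 for Pcyt1a, 19.8 for Cept1, 15.2 for Ptdss1, 3.42 for Chka and 3.23 for Ptdss2, since fewer exon bases were counted; those of Lpcat1 and Chkb moved by less than 1 SD. Depth limits Chkb and Lpcat1.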

Other observations

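Lpin1, a phosphatidate phosphatase gene beside Lpin2, was singled out after its values were seen. It was at 469.7, 449 and 224 CPM in Lira161, Lira162 and Lira164 and at 39.1, 137 and 223 CPM in PBS155, PBS157 and PBS158. The groups did not overlap, yet Lira164 and PBS158 were almost level. The log2 fold change of 1.52 ± 0.69 (SE) was larger than that of any gene called around the enzymes and did not pass (edgeR adjusted p = 0.256).

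Among the 8 genes of phosphatidylinositol and cardiolipin synthesis, of which 0 passed edgeR's test, 5 had groups that did not overlap, beside 31.3% of all tested genes. Of these 5, Cds2 (0.22), Cdipt (0.17), Pgs1 (0.31) and Ptpmt1 (0.48) were on the higher side under liraglutide and Taz (-0.25) on the lower side. Exons of Kbtbd4 on the other strand cover 45% of the Ptpmt1 exons. Kbtbd4 had 284 to 443 reads against 1360 to 2453 for Ptpmt1, so part of the Ptpmt1 count is uncertain. Crls1, the cardiolipin synthase gene, lay at 0.0001.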
